A study of Mus musculus with 16 samples.

Results

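The ionotropic glutamate receptors of the AMPA and NMDA type were followed through the brain transcriptomes of Trrap-FBΔ mice. The members are the 4 AMPA receptor subunit genes (Gria1, Gria2, Gria3 and Gria4) and 6 NMDA receptor subunit genes (Grin1, Grin2a, Grin2b, Grin2c, Grin2d and Grin3a), taken by gene symbol. All 10 were among the 53801 genes counted, and all 10 passed the filter on low counts in every comparison. Brain RNA of 9 mice of the strain C57BL6/J-129sv, aged 10 days, was sequenced in 16 libraries, made of cortex or of striatum. Control mice were Trrap Fl/+; Camk2-Cre tg, with 1 floxed and 1 intact Trrap allele, and gave 4 cortices (mice 55, 58, 63 and 64) and 4 striata (mice 58, 63, 64 and 65). The Trrap-FBΔ mice were Trrap Fl/Fl; Camk2-Cre tg, and mice 57, 59, 60 and 61 each gave both tissues. The Cre transgene was thus carried by both groups. Its Camk2 promoter is active in pyramidal neurons of the forebrain, and the other cells of each bulk tissue were sequenced along with them. The question was how the subunit genes, and the developmental balance of Grin2b and Grin2a, stand in each tissue and genotype.

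AMPA receptors carry most of the fast excitatory current between neurons. They assemble as tetramers of the subunits encoded by Gria1 to Gria4. The Gria2 subunit, once its messenger RNA is edited at a glutamine codon in the pore, makes the channel impermeable to calcium. NMDA receptors need the obligatory subunit of Grin1 together with GluN2 subunits, encoded by Grin2a to Grin2d, or the GluN3A subunit of Grin3a, which lowers calcium entry. Grin2b and Grin2d are expressed early in brain development, Grin2a rises after birth, Grin2c is best known from the cerebellum, and Grin3a is a subunit of juvenile synapses. Loss of Grin2b in favour of Grin2a is the classical developmental switch of the forebrain NMDA receptor.

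The AMPA subunit genes are close relatives, so the stretch around the edited codon is shown to let the reader see how far 51-base reads can separate them. Each line holds 51 coding bases of the GENCODE transcripts, 5′ to 3′, with the glutamine codon in capitals.
Gria1: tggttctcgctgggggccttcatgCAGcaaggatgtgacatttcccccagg
Gria2: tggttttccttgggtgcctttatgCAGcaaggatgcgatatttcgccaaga
Gria3: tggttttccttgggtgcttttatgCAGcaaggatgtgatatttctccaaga
Gria4: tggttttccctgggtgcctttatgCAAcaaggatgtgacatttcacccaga
Against the Gria2 stretch, that of Gria1 differed at 10 bases, that of Gria4 at 6 and that of Gria3 at 3. Even in this conserved part of the pore each gene therefore had 51 bases of its own. Over whole transcripts, 0% to 0.62% of the 51-base words of the members other than Grin2a also occurred in a gene outside the members. With other members, Gria2 shared 12 of 15695 words, Gria3 9 of 9937, Gria4 8 of 6277 and Gria1 0 of 6035. Grin2a shared 11.55% of its words with Gm7328 and Aoc2, so that part of its reads may be missing from the counts of uniquely mapped reads. Counts per gene do not show whether the codon was edited.

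The genes lie on 9 chromosomes of GRCm38. Gria1 is on chromosome 11 (57011387 to 57330244, plus strand), Gria2 on chromosome 3 (80681450 to 80802835, minus strand), Gria3 on chromosome X (41400854 to 41678601, plus strand) and Gria4 on chromosome 9 (4417896 to 4796234, minus strand). Grin1 is on chromosome 2 (25291181 to 25319187), Grin2a on chromosome 16 (9567898 to 9995560), Grin2b on chromosome 6 (135713233 to 136173511), Grin2c on chromosome 11 (115249169 to 115267243), Grin2d on chromosome 7 (45831883 to 45878378) and Grin3a on chromosome 4 (49661611 to 49845744), all on the minus strand. The values are sums over the exons of each gene, untranslated regions included. Since the study turned on the transcription factor Sp1, which binds GC boxes, the RefSeq promoters were searched for GGGCGG on both strands in the 250 bases before the start site. A promoter was at hand for 5 members (Gria2, Gria4, Grin1, Grin2c and Grin2d), and 1 of them, that of Grin2c, held the motif, against 32.7% of all 32851 promoters. The 250 bases before the Grin2c start, on the minus strand of GRCm38.p6 at chr11:115267244-115267493, are shown because they hold 3 of these motifs. The motifs are given in capitals, and 2 of them overlap each other.
Grin2c: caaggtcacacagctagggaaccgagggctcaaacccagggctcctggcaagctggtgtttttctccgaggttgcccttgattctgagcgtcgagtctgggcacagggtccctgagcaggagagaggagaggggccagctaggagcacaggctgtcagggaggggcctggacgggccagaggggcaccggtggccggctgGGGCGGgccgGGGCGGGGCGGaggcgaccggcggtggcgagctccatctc
No binding was measured in these libraries, and the match is a match of letters.

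Between 28743866 and 48761429 reads were counted per library, and the 10 members took 0.213% to 0.335% of them. The least counted member, Grin2c, had 757 to 1674 reads per library. The targeted gene, Trrap, did not separate the groups in counts over all its exons, which include those outside the floxed part. On the CPM scale (reads of a gene per 1000000 reads counted, after TMM scaling over the 16 libraries), control cortices 55, 58, 63 and 64 held 173, 156, 136 and 147 CPM of it. The cortices labelled Trrap-FBΔ, of mice 57, 59, 60 and 61, held 121, 137, 135 and 146 CPM. In the striatum it lay between 140 and 151 CPM in controls and between 135 and 148 CPM in the libraries labelled Trrap-FBΔ. The adjusted p of edgeR was 0.083 in the cortex (log2 fold change -0.18, standard error 0.075) and 0.52 in the striatum (-0.04, standard error 0.048). Group names and directions below therefore follow the labels of the libraries. The authors themselves reported the deletion in Trrap-FBΔ forebrains of this age by western blot and quantitative PCR.

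The labelled tissues were checked against markers. The 7 markers of excitatory cortical neurons summed to between 1466 and 1859 CPM in the cortex libraries and between 471 and 791 CPM in those labelled striatum. Neurod6, a transcription factor of cortical pyramidal neurons, was lower in striatum than in cortex by 2.1 on the log2 scale in controls, while Slc17a6, the vesicular glutamate transporter best known from subcortical neurons, was higher by 2.11. The 9 markers of striatal projection neurons, taken as a sum, did not mark the libraries labelled striatum. They summed to 305, 664, 1497 and 634 CPM in the control striata of mice 58, 63, 64 and 65 and to between 453 and 731 CPM in the Trrap-FBΔ striata, against 369 to 987 CPM in the cortices. Of these 9 genes, only Tac1 differed between the control tissues by edgeR. Drd1, the D1 dopamine receptor, was at 7.84 to 59.9 CPM in control striata and 18.1 to 40.2 CPM in control cortices. In Trrap-FBΔ mice, 4 of the 9 were higher and 1 was lower in the striatum, while 54.7% of all genes tested were called. The tissue of these libraries is called striatum here because that is its label.

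**Figure D1:**
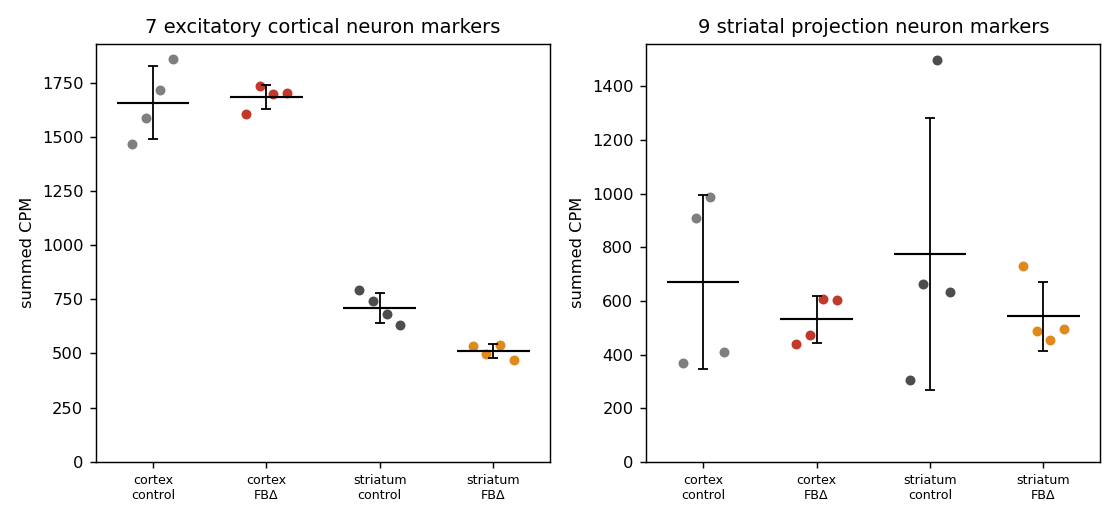
Summed CPM of the marker genes of excitatory cortical neurons (left) and of striatal projection neurons (right) in each library, by tissue and genotype. Points are libraries, and lines and bars give the mean and SD of 4. The cortical sum, which includes Slc17a6, separates the tissues and is lower in Trrap-FBΔ striata (471 to 540 CPM) than in control striata (633 to 791 CPM). The striatal sum overlaps between the tissues.

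Levels of different genes can be set side by side only per length. In control cortex, Gria1 and Gria2 led with 64.6 ± 6.07 and 62.4 ± 1.79 CPM per exonic kb (SD, n = 4), and their ranges overlapped. Grin1 followed with 44.4 ± 5.33 and Grin2b with 29.3 ± 0.874, each apart from its neighbours. Gria4 (20.3) and Gria3 (19.8 CPM per exonic kb) overlapped each other, Grin3a stood at 12.2, and Grin2a (8.19), Grin2d (7.74) and Grin2c (6.7) overlapped at the bottom. The order depends on the length used, since all annotated exons together are much longer than the longest coding sequence. Grin2b had 24.84 exonic and 4.45 coding kb, and Gria2 15.55 exonic and 2.65 coding kb. Per coding kb, Gria2 led alone in control cortex with 366 CPM, ahead of Grin2b (164), Grin1 (149.8) and Gria1 (144), which overlapped in turn.

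In control striatum, the order per exonic kb was Gria1 (60.8), Gria2 (53.8), Gria4 (30.9), Grin1 (30.0), Grin2b (16.3), Gria3 (14.7), Grin3a (14.3), Grin2d (10.7), Grin2c (6.26) and Grin2a (4.2 CPM per exonic kb). The neighbours Gria1 and Gria2, Gria4 and Grin1, and Gria3 and Grin3a overlapped in their ranges. Grin2a was thus last of the 10 in the striatum on this scale, below Grin2c, whereas per coding kb it ranked ninth with Grin2c last (17.2 and 8.48 CPM per coding kb). On both scales Gria2, Gria1 and Grin1 were among the leading 4 genes in the control libraries of either tissue.

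**Figure D2:**
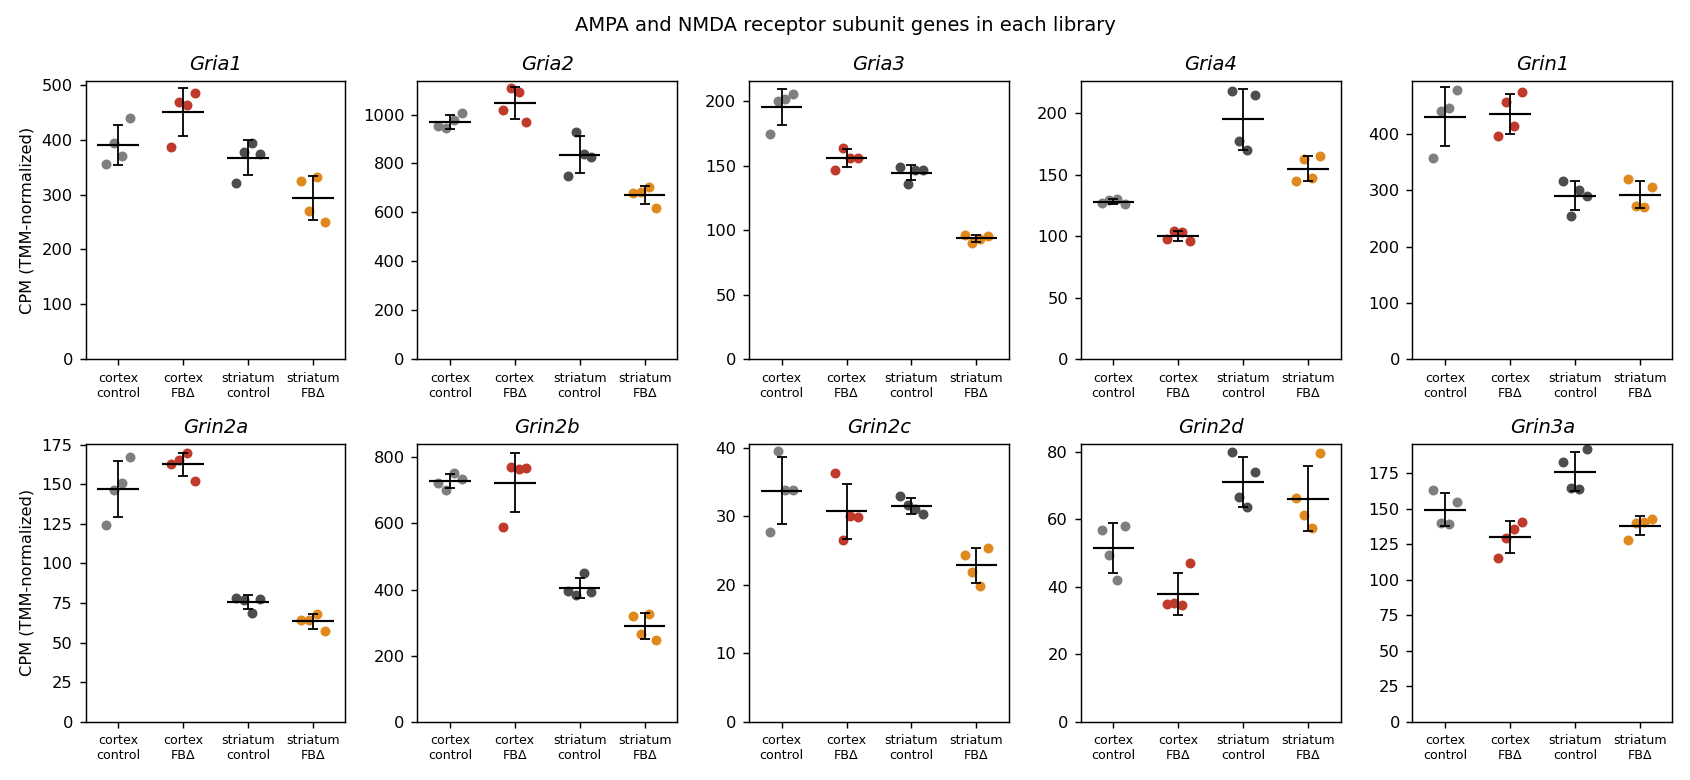
TMM-normalized CPM of the 10 subunit genes in each of the 16 libraries (1 panel per gene, y axes from 0). Points are libraries, and lines and bars give the mean and SD of 4. Gria3 shows 4 Trrap-FBΔ libraries below all 4 control libraries in both tissues, Grin1 overlaps in both, and Grin2a and Grin2b are lower in every striatal than in every cortical library.

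The tissues differed in most subunits. In control mice, 8 of the 10 members differed between striatum and cortex by edgeR's quasi-likelihood test at an adjusted p under 0.05, with 3 higher and 5 lower in the striatum, while 40.4% of all genes tested were called in this comparison. In such bulk tissue, fewer cells of a type and less RNA per cell cannot be told apart. Grin2a showed the largest difference among the members and stood at 124, 146, 151 and 167 CPM in control cortices 55, 58, 63 and 64, against 78.0, 76.9, 68.9 and 77.7 CPM in control striata 58, 63, 64 and 65. All striata were below all cortices, by -0.96 on the log2 scale (standard error 0.083, adjusted p = 1.7e-05). Grin2b was at 723, 701, 753 and 736 CPM in these cortices and at 396, 383, 449 and 394 CPM in these striata (-0.84, standard error 0.066, adjusted p = 1.1e-05), again without overlap. Grin1 (-0.56) and Gria3 (-0.43) were lower in the striatum as well.

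Gria4 and Grin2d stood the other way. Gria4 was at 127, 129, 130.2 and 126 CPM in the control cortices and at 218, 177, 170.3 and 215 CPM in the control striata, all of them higher (0.61, standard error 0.084, adjusted p = 0.00027). Grin2d was higher by 0.47 (standard error 0.11, adjusted p = 0.0058), with 41.9 to 57.9 CPM in cortices and 63.8 to 80.0 CPM in striata. Grin3a was higher by 0.24 (adjusted p = 0.025) and Gria2 lower by a log2 fold change of -0.21 (adjusted p = 0.034). These last calls are the less firm ones, as adjusted p reached 0.078 for Grin3a and 0.1 for Gria2 when single libraries were left out, and Gria2 was at 0.12 with upper-quartile normalization. Gria1 (-0.09, 95% interval -0.27 to 0.1) and Grin2c (-0.1, interval -0.3 to 0.11) did not pass the test.

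In the Trrap-FBΔ mice, 9 of the 10 members differed between the tissues, against 54.7% of all genes tested, with Gria4 (0.63) and Grin2d (0.8) higher in the striatum and 7 members lower. Grin2a (-1.36, standard error 0.057, adjusted p = 5.7e-09) and Grin2b (-1.32, standard error 0.11, adjusted p = 7.4e-07) again showed the largest falls. Gria1 (-0.62) and Grin2c (-0.43) passed the test in these mice, and Grin3a did not (0.08, interval -0.05 to 0.22). With the mouse as a block the counts were again 8 and 9.

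**Figure D3:**
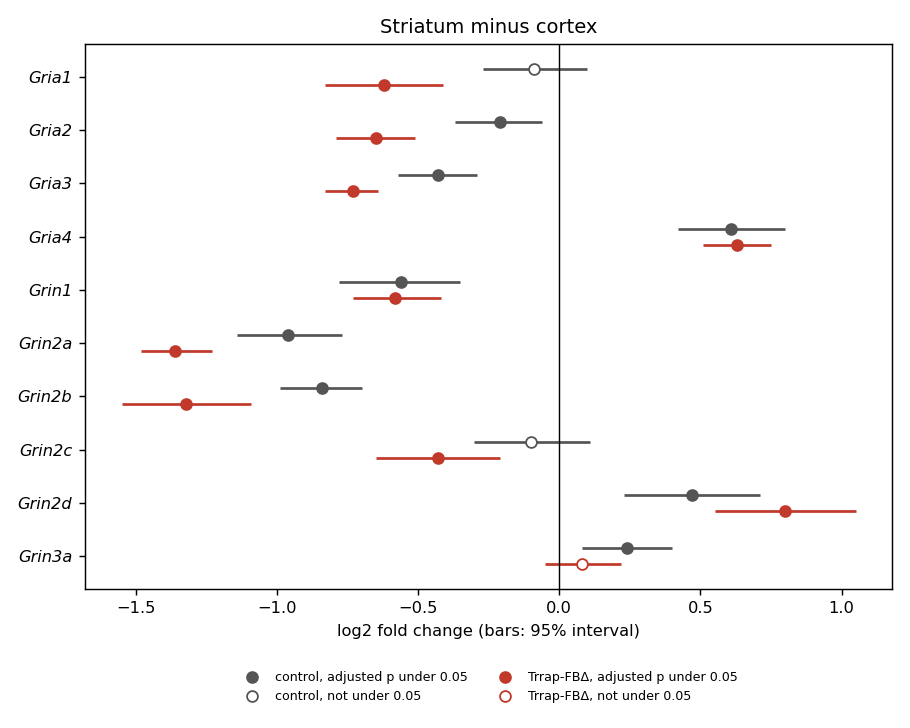
Difference between striatum and cortex of each subunit gene as a log2 fold change with its 95% interval, in control mice (grey) and Trrap-FBΔ mice (red). Filled points have an adjusted p under 0.05 in edgeR. Gria4 and Grin2d lie to the right of 0 in both genotypes, Grin2a and Grin2b farthest to the left.

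In the cortex, 3 of the 10 subunit genes were called, Gria3, Gria4 and Grin2d, each with less RNA in Trrap-FBΔ than in control libraries. Of all genes tested in the cortex, 33.3% were called and 17.6% were called lower, so the members' share is near the background. The median log2 fold change was -0.07 over the members and 0.001 over all genes tested. Groups that did not overlap were found for 2 members, Gria3 and Gria4, and for 32.7% of all genes tested.

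Among the AMPA subunits of the cortex, Gria4 separated the groups most cleanly. Its control cortices lay between 126 and 130.2 CPM, and the cortices of mice 57, 59, 60 and 61 were at 97.6, 104, 103 and 96.1 CPM. The fall was -0.35 on the log2 scale (standard error 0.042, adjusted p = 0.00015). Gria3 was at 175, 200.2, 202 and 206 CPM in the control cortices and 147, 164, 156 and 156 CPM in the Trrap-FBΔ cortices, again without overlap (-0.33, standard error 0.056, adjusted p = 0.0012). Gria1 stood at 357, 395, 370.4 and 440.1 CPM in controls and 387, 469.8, 464 and 485 CPM in Trrap-FBΔ cortices, with overlapping groups and means of 391 ± 36.7 and 451 ± 43.6 (SD, n = 4 each). Its log2 fold change of 0.21 (interval 0.03 to 0.39) had an adjusted p of 0.071 and passed the threshold in DESeq2 (0.04), without the filter on low counts (0.038), with sex in the fit (0.037), and without mouse 57 (0.012) or mouse 64 (0.031). Gria2, the most counted member, was at 971 ± 27.9 and 1047 ± 65.1 CPM (0.11, interval -0.03 to 0.25).

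Among the NMDA subunits of the cortex, Grin2d was the called gene. Control cortices held 56.9, 49.4, 41.9 and 57.9 CPM and Trrap-FBΔ cortices 34.8, 35.3, 34.5 and 47.2 CPM, where mouse 61 alone reached into the control range. The fall was -0.44 (standard error 0.12, adjusted p = 0.015, and 0.0031 to 0.049 with single libraries left out). Grin1, the obligatory subunit, was at 431 ± 51.7 CPM in control and 436 ± 36.2 CPM in Trrap-FBΔ cortices (0.02, interval -0.18 to 0.21). Grin2b (728 ± 21.7 and 724 ± 89.4 CPM, interval -0.19 to 0.17) and Grin2a (147 ± 17.7 and 162 ± 7.31 CPM, interval -0.02 to 0.31) did not pass the test either. Grin3a, at 149 ± 11.7 and 130.4 ± 11.4 CPM, missed the threshold (-0.2, adjusted p = 0.054). It passed in DESeq2 (0.039), without the filter on low counts (0.025), with all 16 libraries in one fit (0.044), and without mouse 58 (0.049), mouse 61 (0.041) or mouse 63 (0.043), and ranged up to 0.13 with other single libraries left out. Grin2c lay between 26.6 and 39.6 CPM in all cortices (-0.14, interval -0.38 to 0.1). The count of called members rose from 3 to 5 without control mouse 64, when Gria1 and Grin2a (0.21, adjusted p = 0.049) were added as higher.

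In the striatum, 8 of the 10 subunit genes were called, each with less RNA in Trrap-FBΔ than in control libraries. All 4 AMPA subunits and the NMDA subunits Grin2a, Grin2b, Grin2c and Grin3a fell, and Grin1 and Grin2d did not pass the test. Of all genes tested in the striatum, 30.2% were called and 15.8% were called lower. The median log2 fold change was -0.32 over the members and -0.006 over all genes tested. Groups did not overlap for 7 members, that is for the 8 called genes other than Gria1, and for 31.6% of all genes tested.

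Gria3 fell furthest. Control striata 58, 63, 64 and 65 held 149, 136, 147 and 147 CPM, while Trrap-FBΔ striata 57, 59, 60 and 61 held 96.1, 90.3, 93.1 and 95.5 CPM. The fall to 0.648 of the control level (log2 fold change -0.63, standard error 0.045, adjusted p = 5.8e-05) had the 15th smallest p of the 18872 genes tested. Gria2 was at 749, 930.1, 840.1 and 825 CPM in controls and at 678, 683, 702 and 616 CPM in Trrap-FBΔ striata (-0.32, standard error 0.076, adjusted p = 0.01). Gria4 was at 218, 177, 170.3 and 215 CPM in controls and 145, 163, 147 and 165 CPM in Trrap-FBΔ striata, with all the latter lower (-0.33, standard error 0.088, adjusted p = 0.018). Gria1 overlapped, with 321, 378, 395 and 375 CPM in controls and 325, 270.5, 332 and 249.7 CPM in Trrap-FBΔ striata (-0.32, standard error 0.1, adjusted p = 0.035). The call for Gria1 was lost without any 1 of mice 59, 61, 63, 64 and 65 (adjusted p 0.06 to 0.095), and that for Gria4 without mouse 57 (0.056) or mouse 60 (0.053).

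Among the NMDA subunits of the striatum, Grin2b was at 396, 383, 449 and 394 CPM in the controls, against 321, 267, 325 and 248 CPM in the Trrap-FBΔ striata. All Trrap-FBΔ striata were lower, by -0.48 on the log2 scale (standard error 0.094, adjusted p = 0.0041). Grin2c, the least counted member, was at 33.0, 31.7, 31.1 and 30.3 CPM in controls and 24.4, 21.8, 19.8 and 25.4 CPM in Trrap-FBΔ striata (-0.46, standard error 0.078, adjusted p = 0.002). Grin3a was at 183, 165, 164 and 192 CPM and at 128, 140.3, 141 and 143 CPM in these groups (-0.35, standard error 0.062, adjusted p = 0.0027). Grin2a fell less, from 75.4 ± 4.35 to 63.3 ± 4.57 CPM (-0.25, standard error 0.063, adjusted p = 0.014), and its 4 Trrap-FBΔ striata, at 57 to 67.8 CPM, were just below the lowest control at 68.9 CPM. Grin1 was at 291 ± 25.9 and 293 ± 24.3 CPM (0.01, interval -0.16 to 0.18), and Grin2d at 71.1 ± 7.38 and 66.2 ± 9.65 CPM (-0.1, interval -0.33 to 0.12).

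**Figure D4:**
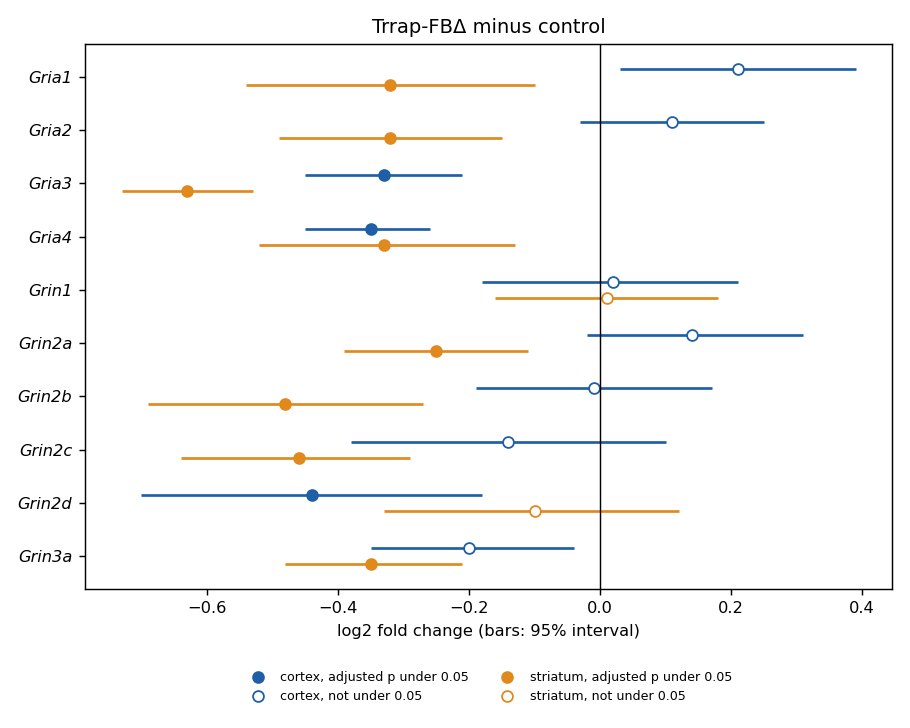
Difference between Trrap-FBΔ and control libraries of each subunit gene as a log2 fold change with its 95% interval, in the cortex (blue) and the striatum (orange). Filled points have an adjusted p under 0.05 in edgeR. All 8 filled striatal points and the 3 filled cortical points lie below 0, and Grin1 lies at 0 in both tissues.

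Other genes moved with the groups of the striatum. Of the 7 markers of excitatory cortical neurons, 4 were lower in Trrap-FBΔ striata, among them Slc17a7, a vesicular glutamate transporter of cortical neurons (-0.88, adjusted p = 0.011), and Neurod6 (-1.14, adjusted p = 0.023), with a list median of -0.67. Their sum was 633 to 791 CPM in control and 471 to 540 CPM in Trrap-FBΔ striata, and none of the 7 was at 0. In the cortex, 2 of the 7 were lower, among them Slc17a6, and the sums were 1466 to 1859 CPM in control and 1604 to 1736 CPM in Trrap-FBΔ libraries. Mature neuron markers summed to 5591 to 5752 CPM in control and 4557 to 4854 CPM in Trrap-FBΔ striata, without overlap, and 3 of 7 were lower, namely Camk2a (-0.56), Thy1 (-0.31) and Map2 (-0.25). Their sums did not overlap in the cortex either (7495 to 8351 and 7159 to 7443 CPM), where 3 of 7 were lower. Astrocyte markers summed to 3822 to 4125 CPM in control and 3426 to 3737 CPM in Trrap-FBΔ striata, with Slc1a2 lower (-0.36) and Gfap (0.57) and Gja1 (0.23) higher. Of 8 interneuron markers in the striatum, Gad2 was higher (0.3) and Pvalb lower (-0.3), and the sums were 955 to 1159 and 1133 to 1278 CPM. Microglial markers were lower in 5 of 5 genes in both tissues, with sums of 186 to 223 CPM in control and 143 to 158 CPM in Trrap-FBΔ striata. Of 8 immature neuron markers, 7 were lower in cortical and 6 in striatal libraries of the Trrap-FBΔ group. Oligodendrocyte precursor markers were lower in 5 of 5 cortical and 2 of 5 striatal comparisons, mature oligodendrocyte markers in 5 of 5 and 0 of 5 (0 at an unadjusted p under 0.05 in edgeR), and endothelial markers in 4 of 4 and 1 of 4. The part of these cell types in the results for the members was not tested.

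The summed cortical markers include Slc17a6, at 263 ± 61.5 CPM in control and 264 ± 29.5 CPM in Trrap-FBΔ striata, and do not follow cortical neurons alone. With this sum as a covariate, chosen after the data were seen, none of the members passed the threshold in edgeR in the striatum. Of all genes tested there, 0 passed, and the covariate itself separated the groups. At an unadjusted p under 0.05 there were 3 members, Gria3, Grin2c and Grin3a, against 11.2% of all genes tested. The log2 fold change was then -0.06 for Grin2a, -0.26 for Grin2b, -0.22 for Gria1, -0.27 for Gria2, -0.44 for Gria4, -0.47 for Grin3a, -0.48 for Grin2c and -0.64 for Gria3. Since the marker sums of the groups did not overlap, these values cannot be told apart from the genotype. In the cortex the same covariate left 3 members called, against 5952 of all 18268 genes tested, so the members' share is near the background. The control striata came from 1 female and 3 males and the Trrap-FBΔ striata from 3 females and 1 male, and with sex in the fit 5 members were called, as Gria1 (log2 fold change -0.28, adjusted p = 0.11), Gria4 (-0.3, adjusted p = 0.074) and Grin2a (-0.23, adjusted p = 0.054) no longer passed, with log2 fold changes near those without sex.

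The difference between the effects in the 2 tissues was tested by an interaction in edgeR over all 16 libraries. None of the 10 members passed, against 0.437% of all genes tested, while 6 had an unadjusted p under 0.05, against 12.1% of all genes tested. These were Gria1, Gria2, Gria3, Grin2a, Grin2b and Grin2c, all with the lower effect in the striatum. Gria2 came nearest, with a difference of -0.43 between the log2 fold changes (standard error 0.095, adjusted p = 0.058), followed by Gria3 (-0.3, adjusted p = 0.083) and Gria1 (-0.53, adjusted p = 0.1). The call depended on the test, since DESeq2 called 5 members (Gria1, Gria2, Gria3, Grin2a and Grin2b), limma-voom called Gria2 (adjusted p = 0.046), and edgeR with the mouse as a block called Gria2 (-0.42, adjusted p = 0.04). Gria4 (0.02, interval -0.19 to 0.24) and Grin1 (-0.01, interval -0.28 to 0.26) had nearly the same effect in either tissue. Since the tissues of 7 mice are paired, the blocked call of Gria2 stands beside the unblocked value, and no other member was called with the block.

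The ratio of Grin2b to Grin2a counts needs no scaling to library size. In control cortices it was 5.83, 4.82, 4.99 and 4.41 in mice 55, 58, 63 and 64, and in Trrap-FBΔ cortices 3.63, 4.68, 4.51 and 5.04 in mice 57, 59, 60 and 61. The groups overlapped, with means of 5.01 ± 0.596 and 4.46 ± 0.6 (SD, n = 4 each). In control striata it was 5.07, 4.99, 6.52 and 5.07 in mice 58, 63, 64 and 65, and in Trrap-FBΔ striata 5.02, 4.14, 4.79 and 4.36 in mice 57, 59, 60 and 61. Here the means were 5.41 ± 0.739 and 4.58 ± 0.398, and mouse 57 reached into the control range. Every library thus held between 3.63 and 6.52 Grin2b counts for each Grin2a count, so that Grin2b prevailed at this age in both tissues and genotypes. The level of the ratio may be too high, since 11.55% of the 51-base words of Grin2a, and 0% of those of Grin2b, occur in other genes.

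On the log2 scale, the ratio was lower in the Trrap-FBΔ libraries by a difference of -0.17 in the cortex (exact permutation test, 2-sided, p = 0.31, adjusted p = 0.31) and -0.24 in the striatum (exact permutation test, 2-sided, p = 0.057, adjusted p = 0.11). The smallest p that 4 against 4 libraries allow is 0.029. Neither difference passed the threshold. Leaving out control mouse 64 moved the striatal difference to -0.14, and leaving out mouse 57 or mouse 55 moved the cortical one to -0.07 or -0.09. Within the 7 mice with both tissues, the log2 ratio of the striatum minus that of the cortex was 0.07, 0 and 0.56 in control mice 58, 63 and 64 and 0.47, -0.17, 0.08 and -0.21 in Trrap-FBΔ mice 57, 59, 60 and 61, with no common direction. Grin2a and Grin2b were each lower in the striatum, while their ratio spanned 3.63 to 5.83 in cortices and 4.14 to 6.52 in striata. Divided by exonic length, the ratio lay between 2.62 and 4.71, and by coding length between 3.58 and 6.44.

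**Figure D5:**
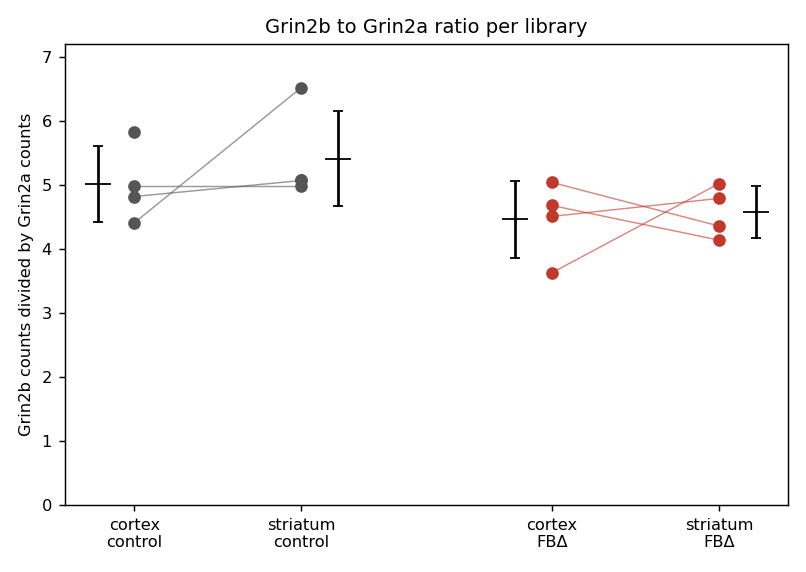
Grin2b counts divided by Grin2a counts in each library (y axis from 0), by tissue and genotype. Points are libraries, thin lines join the tissues of a mouse, and the black marks beside them give the mean and SD of 4. All ratios lie between 3.63 and 6.52 and the groups overlap in both tissues.

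The make-up of each family was described by shares of the CPM per coding kb, without a test. Gria2 took 58.1% ± 1.23 (SD, n = 4) of the AMPA subunit sum in control and 60.2% ± 2.07 in Trrap-FBΔ cortices, and 54.6% ± 2.36 and 55.7% ± 0.946 in the striata. This lead depends on the length used. Per exonic kb, Gria1 and Gria2 took 38.6% ± 1.75 and 37.4% ± 1.21 in control cortices. In control striata they took 37.9% ± 2.17 and 33.5% ± 2.06 per exonic kb. The shares that follow are per coding kb. The share of Gria3 was 11.6% ± 0.547 and 8.91% ± 0.233 in control and Trrap-FBΔ cortices and 9.45% ± 0.833 and 7.78% ± 0.521 in the striata. Gria4 took 7.51% ± 0.359 and 5.64% ± 0.128 of the cortical sum and 12.5% ± 2.09 and 12.7% ± 1.5 of the striatal sum. In the cortex the shares of Gria3 (10.9% to 12.1% and 8.62% to 9.19%) and Gria4 (6.97% to 7.76% and 5.57% to 5.83%) did not overlap between the genotypes.

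Among the GluN2 genes, Grin2b held 74.7% ± 1.71 in control and 74.6% ± 2.78 in Trrap-FBΔ cortices, and 67.6% ± 2.69 and 63.5% ± 3.98 in the striata. Grin2d held a larger share in the striatum than in the cortex, with 5.93% ± 0.885 and 13.3% ± 1.49 in controls. Its share was 4.41% ± 0.666 in Trrap-FBΔ cortices and 16.4% ± 3.24 in Trrap-FBΔ striata. Per exonic kb, Grin2b held 56.5% ± 2.18 in control cortices and 43.6% ± 3.04 in control striata, so the leading gene was the same on either length.

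Genes that work with the receptors were taken from 6 lists of 67 genes. In the cortex, 8 were higher and 13 lower of 66 tested (31.8% called, against 33.3% of all genes tested). In the striatum, 5 were higher and 20 lower of 67 tested (37.3% called, against 30.2% of all genes tested). The median log2 fold changes were -0.03 and -0.11. The counts per list below are to be read beside these shares. Of the 17 AMPA receptor auxiliary subunits, 3 were higher and 3 lower in the cortex, and 3 higher and 7 lower in the striatum. Cacng4, a transmembrane regulatory protein of AMPA receptors, was lower in both tissues (-0.53 and -0.28), as was its relative Cacng3 (-0.19 and -0.37). Cacng5 (0.4 and 0.43) and Cacng7 (0.16 and 0.25), of the same protein family, were higher in both. Cacng4 stood at 129 ± 8.29 and 89.3 ± 5.45 CPM in control and Trrap-FBΔ cortices, and Cacng5 at 44.7 ± 2.88 and 60.4 ± 3.05 CPM in the striata.

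Of the 7 genes of AMPA receptor assembly and editing, 1 was higher in the cortex and 0 were called in the striatum by edgeR, where 0 had an unadjusted p under 0.05 either (log2 fold changes -0.11 to 0.07). The 19 postsynaptic scaffolds held 1 higher and 3 lower gene in the cortex and 6 lower genes in the striatum. Dlgap3, a protein that joins PSD-95 to Shank proteins, was lower in both tissues (-0.31 and -0.43), as was the scaffold Shank2 (-0.14 and -0.3). Of the 7 metabotropic glutamate receptors, 4 were lower in the cortex, and 4 were lower and 1 higher in the striatum, with Grm7 (-0.24 and -0.17) lower in both. Of the 8 kainate and delta receptor genes, 2 were higher in the cortex and 1 was lower in the striatum. The NMDA receptor partners held 1 higher and 3 lower genes of 8 tested in the cortex, and 1 higher and 2 lower of 9 in the striatum.

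Among the partners, 2 genes passed the interaction test of edgeR without the mouse as a block. Both were near the threshold, and the block and the other alternatives were not tried for the partners. Neto1, an auxiliary protein of NMDA and kainate receptors, was at 133 ± 19.2 and 119 ± 7.15 CPM in control and Trrap-FBΔ cortices (adjusted p = 0.17) and at 90.9 ± 15.8 and 48.3 ± 3.81 CPM in the striata (-0.91, adjusted p = 0.00044). The difference of its log2 fold changes was -0.75 (adjusted p = 0.044). Grip2, which binds the tail of AMPA receptor subunits, fell in the cortex from 43.8 ± 1.98 to 33.0 ± 2.61 CPM (-0.41, adjusted p = 0.00072) and was at 41.6 ± 4.99 and 44.9 ± 2.85 CPM in the striata (adjusted p = 0.34), a difference of 0.52 (adjusted p = 0.049).

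The genes whose pattern was most like each member were sought among 14990 genes with a mean of at least 50 counts, by Pearson's correlation of log2 CPM over the 16 libraries. These values are descriptions, since tissue separates the libraries and the samples of a mouse are not independent. Grin2b was most like Prickle2 (0.991) and Cnksr2 (0.988), and Grin2a most like Pex5l (0.99) and Mical2 (0.989). Grin1 was nearest to Clstn1 (0.988) and Ankrd34a (0.983). Gria1 was most like Dusp18 (0.933) and Slit3 (0.932), Gria2 most like Hapln1 (0.975) and Psd3 (0.97), Gria3 most like Atcay (0.981) and Pcdha5 (0.98), and Gria4 most like Itga6 (0.986) and Endod1 (0.984). The values were lowest for Grin2c, with Llph (0.9) and Srm (0.871), and for Grin3a, with Nckap5 (0.914) and Ptprz1 (0.913), while Grin2d was most like Crtap (0.959) and Phf1 (0.954). Among the members themselves, Grin2a and Grin2b were the most alike pair (0.95), and Gria4 varied with Grin2d (0.88) and Grin3a (0.76) and against Grin2a (-0.8).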

How the data were processed

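Polyadenylated RNA was sequenced by the authors as stranded single-end reads of 51 bases, in pools of 4 libraries per lane. They aligned the reads to GRCm38 with STAR 2.5.4b and the Ensembl annotation and counted uniquely mapped reads with featureCounts 1.5.0. The deposited values are raw counts per gene, without normalization. Symbols, coordinates and lengths were taken here from GENCODE release M21 of the same build (53620 of 53801 identifiers matched). Counts were tested in R 4.3.3 with edgeR 4.0.16 (TMM, filterByExpr, quasi-likelihood test, Benjamini-Hochberg adjustment over all genes tested, threshold 0.05), separately per comparison. DESeq2 1.42.0 and limma-voom (limma 3.58.1) were alternatives, as were other normalizations and filters, sex as a covariate, the mouse as a block, all 16 libraries in one fit and each library left out. Grin2b to Grin2a ratios were compared by exact permutation tests with scipy. The steps were tested on simulated data.

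The members, the lists of genes and the comparisons were chosen with earlier results of these data known. Named partner genes were those called in the same direction in both tissues (8 of at most 10 allowed) or in the interaction; some genes of the lists are counted but not reported here by name. Libraries of a mouse are paired, and deviations from the group means correlated by 0.0833 to 0.348 within 7 mice, 6 of them over 0.1, and by -0.303 to 0.215 in 25 pairs of different mice. Within groups no library repeated another, with a chi-square per degree of freedom of 8.26 to 44.6 in 24 pairs.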

Additional observations from a re-analysis of the deposited data

Results flagged for a closer look

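In 44 sets of 4 libraries (10 genes and the ratio in 4 groups), 4 held a library far from the other 3 by Dixon's criterion. Chance gives about 1 in 20 for a single set. The sets are not independent, as they share libraries and the ratio is made from Grin2a and Grin2b. Grin2a was at 68.9 CPM in the control striatum of mouse 64, below the other control striata. The Grin2b to Grin2a ratio of the same library was 6.52, above the other control striata, and both flags draw on its Grin2a count. This library also held the highest sum of striatal projection neuron markers, 1497 CPM. Grin2b was at 589.7 CPM in the cortex of Trrap-FBΔ mouse 57, below the other 3. Grin2d was at 47.2 CPM in the cortex of Trrap-FBΔ mouse 61, above the other 3. Among the genes that work with the receptors, Neto1 (-0.75, striatum minus cortex) and Grip2 (0.52) passed the interaction test of edgeR. That test had no mouse block, and no alternative was tried for these genes.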

How the results depend on the processing

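Directions held for every member that passed the test, under all alternatives tried. The cortical count of 3 called members became 5 with no filter on low values and 5 under DESeq2, and ranged from 3 to 5 with single libraries left out. The striatal count of 8 became 5 with sex as a covariate and 0 with the cortical marker covariate, and ranged from 7 to 8. The interaction count of 0 became 2 without the filter, 1 with at least 10 counts in every library, 5 with DESeq2, 1 with limma-voom and 1 with the mouse as a replicate block, and ranged from 0 to 1 with single libraries left out (1 without control striatum 58 or Trrap-FBΔ cortex 61). The count of all genes called for the interaction was 85, 195 without the filter, 430 with DESeq2 and 219 with the replicate block. The replicate block changed no call of a member between the tissues, where 8 members were called in controls (6 to 8 with single libraries left out) and 9 in Trrap-FBΔ mice. The ratio differences kept their direction with single libraries left out, from -0.23 to -0.07 in the cortex and -0.28 to -0.14 in the striatum. With a library left out, the exact permutation test allows no p under 0.057, so these runs could not pass the threshold. With 4 libraries a group, small changes such as that of Gria1 in the cortex lie at the limit of detection.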
